A study of Rattus norvegicus with 4 samples.

Results

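The circadian clock genes were examined in INS-1 832/3, an insulin-secreting cell line from a rat insulinoma, grown as a 2D monolayer or 3D-bioprinted in a hydrogel. The genes were chosen by name as 10 parts of the molecular clock (Clock, Arntl, Per1, Per2, Cry1, Cry2, Nr1d1, Nr1d2, Dbp and Bhlhe40), and all 10 were found among the 23360 gene symbols of the deposited files and passed the expression filter. The comparison rests on 4 mRNA libraries, 2 from standard monolayer culture and 2 from grids printed in GelXA LAMININK 411, a gelatin methacrylate hydrogel blended with laminin-411 and crosslinked with light. Both groups were the same Geneticin-selected cell line carrying a human insulin gene, were kept in the same medium and were harvested after 5 days at passage 3. The replicates are called biological in the labels, without further detail on separate prints or flasks, so the p-values measure the spread between these cultures. Values are TPM, transcript abundances per transcript length scaled to a sum of 1000000 in each sample, which keep no sequencing depth and allow no counting interval.

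The clock is a loop of transcription factors that runs in most mammalian cells, beta cells included. CLOCK and BMAL1 (the product of Arntl) bind E-boxes and activate the Period and Cryptochrome genes, whose products return to the nucleus and repress them. In a second loop, the REV-ERB receptors (Nr1d1, Nr1d2) and the ROR receptors compete at ROR elements, including those of Arntl itself, and the PAR bZIP factor DBP carries the rhythm to output genes through D-boxes. In beta cells the clock is known for its part in the timing of insulin secretion. In a population whose cells are not synchronised, transcript levels are averages over the phases of the cells. Changes of phase, of synchrony between cells and of mean level cannot be told apart with 1 harvest time. The hour of harvest and any synchronisation of the cultures are not given in the sources used here.

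Of the 10 clock genes, 7 rose and 1 fell in 3D culture with an adjusted p below 0.05 in limma, and 2 did not pass. Over all 11960 genes tested, 38% passed in either direction, 18.5% rose and 19.5% fell. The 10 genes and the gene lists were chosen with earlier results of these data known, so counts over them are no independent evidence. The genes that rose were Bhlhe40, Per2, Nr1d1, Per1, Cry2, Clock and Nr1d2, the gene that fell was Arntl, and Cry1 and Dbp did not pass. The median log2 fold change of the 10 genes was 0.45, against -0.0031 for all genes tested. The values of the 2 cultures of one group did not overlap with those of the other for 9 of the 10 genes, Dbp being the exception, as was the case for 74.2% of all genes tested. Fold changes are on the scale of log2(TPM + 1) after scaling between samples, and TPM values are given as deposited.

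**Figure D1:**
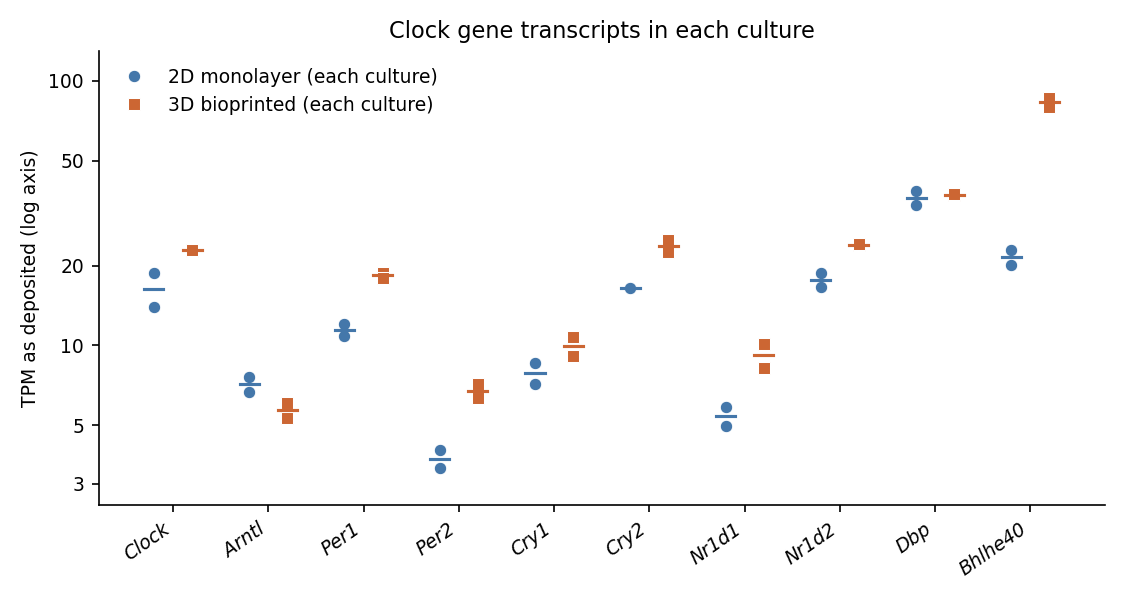
TPM of the 10 clock genes on a log axis, with 1 point per culture (circles 2D monolayer, squares 3D bioprinted) and a bar at the mean of the 2 cultures. The 3D cultures lie above the monolayer cultures for 8 genes and below for Arntl, while the Dbp values overlap.

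Transcripts that mark beta cells were present in both conditions. All 7 beta cell markers examined (Ins1, Ins2, Iapp, Pdx1, Nkx6-1, Mafa and Slc2a2) were present in every sample, Ins1 with 114003 to 137822 TPM. Of these 7 markers 1 fell and 1 rose, where 19.5% of all genes tested fell and 18.5% rose. Ins2 had 13237 and 13340 TPM in the monolayer cultures and 8957 and 9326 TPM in the bioprinted cultures, a log2 fold change of -0.58 (limma adjusted p = 0.0095). Slc2a2, the glucose transporter GLUT2, had 491 and 454 TPM in the monolayer cultures and 626 and 654 TPM in the bioprinted cultures, a log2 fold change of 0.39 (limma adjusted p = 0.0075). Whether these differences have a part in those of the clock genes was not tested. The 4 endothelial markers found in the files (Cdh5, Kdr, Tek and Vwf) summed to between 1.08 and 1.15 TPM in monolayer and between 1.40 and 1.68 TPM in 3D culture, with Cdh5 at 0 in all samples. The 4 fibroblast markers (Col1a1, Col3a1, Pdgfra and Dcn) summed to between 1.89 and 1.91 TPM and between 2.26 and 2.35 TPM, with Dcn at 0 throughout. As these are bulk samples, a change in the number of cells that express a gene and a change per cell cannot be told apart.

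The promoters of 9 of the 10 clock genes, all but Cry1, were found in RefSeq (GRCr8), and the 250 bases before each start were searched on both strands for the letters through which clock factors act. The E-box CACGTG was present in 5.59% of all 33469 promoters of this length, the E'-box CACGTT in 4.07%, the ROR element TAGGTCA in 2.26%, the D-box TTATGTAA in 0.828% and the cyclic AMP element TGACGTCA in 1.59%. The shorter form TGACGT, which the full cyclic AMP element contains, was present in 6.95%. The E-box was found in Bhlhe40, the E'-box in Per2, Cry2 and Nr1d1, the D-box in Per2 and the ROR element in Arntl. None of these letters was found in the windows of Clock, Per1, Nr1d2 and Dbp, which says nothing about sites elsewhere. A single window was searched for each gene, and its start was not matched to those of the transcripts quantified here. Other starts of the same gene may have other motifs. The promoters of the genes with the largest rise and the only fall, of Per2 with motifs of 2 kinds and of Nr1d1 are printed 5′ to 3′ on the strand of the gene, each ending at the base before the start, together with that of Ciart, which had 3 E-boxes. Capitals mark the motifs found.
Bhlhe40: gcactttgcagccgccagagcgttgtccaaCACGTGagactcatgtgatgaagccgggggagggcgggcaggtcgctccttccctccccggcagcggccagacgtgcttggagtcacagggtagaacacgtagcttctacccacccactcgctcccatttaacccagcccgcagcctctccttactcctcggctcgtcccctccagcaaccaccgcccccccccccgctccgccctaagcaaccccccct
Per2: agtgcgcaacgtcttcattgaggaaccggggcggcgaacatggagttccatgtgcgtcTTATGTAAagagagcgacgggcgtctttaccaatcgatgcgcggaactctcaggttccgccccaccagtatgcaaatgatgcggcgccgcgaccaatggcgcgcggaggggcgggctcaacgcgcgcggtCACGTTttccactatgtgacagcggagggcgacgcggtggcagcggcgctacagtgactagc
Nr1d1: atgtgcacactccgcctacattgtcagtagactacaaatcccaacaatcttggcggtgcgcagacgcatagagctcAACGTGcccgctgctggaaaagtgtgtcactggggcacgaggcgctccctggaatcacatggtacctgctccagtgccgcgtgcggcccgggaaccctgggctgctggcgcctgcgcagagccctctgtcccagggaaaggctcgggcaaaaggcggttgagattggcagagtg
Arntl: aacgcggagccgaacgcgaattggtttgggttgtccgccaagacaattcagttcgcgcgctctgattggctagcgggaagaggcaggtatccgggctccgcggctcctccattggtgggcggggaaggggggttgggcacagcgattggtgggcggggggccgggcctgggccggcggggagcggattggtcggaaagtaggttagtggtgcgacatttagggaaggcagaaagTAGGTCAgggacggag
Ciart: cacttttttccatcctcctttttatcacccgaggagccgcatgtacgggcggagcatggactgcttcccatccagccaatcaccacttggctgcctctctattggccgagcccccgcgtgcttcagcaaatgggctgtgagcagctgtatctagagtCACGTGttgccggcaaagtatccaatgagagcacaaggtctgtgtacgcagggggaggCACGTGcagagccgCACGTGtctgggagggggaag

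These windows lie at chr4:143174200-143174449 on the plus strand for Bhlhe40, chr9:99496994-99497243 on the minus strand for Per2 and chr10:84231813-84232062 on the minus strand for Nr1d1. That of Arntl lies at chr1:176766078-176766327 on the plus strand and that of Ciart at chr2:186112247-186112496 on the minus strand. Counted back from the start, the E-box of Bhlhe40 covers bases -220 to -215, the E'-box and the D-box of Per2 bases -62 to -57 and -192 to -185, the E'-box of Nr1d1 bases -174 to -169 and the ROR element of Arntl bases -16 to -10. A match of letters is a description of the sequence, and binding was not measured.

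The partners of the activating complex moved in opposite directions. Arntl, which encodes BMAL1, had monolayer values of 7.62 and 6.68 TPM against 5.31 and 6.05 TPM in the bioprinted cultures. The 3D values lay below both monolayer values, a log2 fold change of -0.32 (SE 0.093, limma adjusted p = 0.0420). This call was close to the threshold, and leaving out any 1 of the cultures gave Arntl an adjusted p between 0.0681 and 0.224. It passed in 5 of 9 other settings, with an adjusted p of 0.0957 on TPM without scaling between samples and 0.0711 without the expression filter. Clock had 18.8 and 14.0 TPM in the monolayer cultures and 22.8 and 23.0 TPM in the bioprinted cultures, a log2 fold change of 0.43 (SE 0.11, limma adjusted p = 0.0344). The monolayer cultures differed from each other by more than the 3D cultures did, and with 3D replicate 1 or 3D replicate 2 left out the adjusted p of Clock was 0.165 and 0.140. Its log2 fold change was 0.27 with monolayer replicate 2 left out and 0.59 with monolayer replicate 1 left out, and it passed in both fits (adjusted p of 0.0462 and 0.0127). The Arntl to Clock ratio was 0.406 and 0.477 in monolayer and 0.233 and 0.263 in 3D culture. These ratios did not overlap, and the exact two-sided permutation test gave p = 0.33, the smallest that 2 cultures against 2 allow.

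The rise of Clock did not involve its transcripts evenly. The files list 3 transcripts, and the most abundant, ENSRNOT00000085991.1, had 13.5 and 11.5 TPM in the monolayer cultures and 13.3 and 14.2 TPM in the bioprinted cultures, values that overlapped. ENSRNOT00000002976.5 had 5.22 and 2.55 TPM in the monolayer cultures and 7.46 and 8.06 TPM in the bioprinted cultures. ENSRNOT00000002981.3 was listed at 0 in both monolayer cultures and had 2.09 and 0.683 TPM in the 3D cultures. The share of the most abundant transcript in the total of Clock was thus 72.2% and 81.8% in monolayer and 58.2% and 61.9% in 3D culture. Tested on the most abundant transcript of each gene alone, Clock had a log2 fold change of 0.098 (limma adjusted p = 0.390). Without the expression filter the adjusted p of Clock was 0.0937, and it was 0.0502 with empirical Bayes without an intensity trend. Salmon divides reads between overlapping transcripts, so the split is an estimate.

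**Figure D2:**
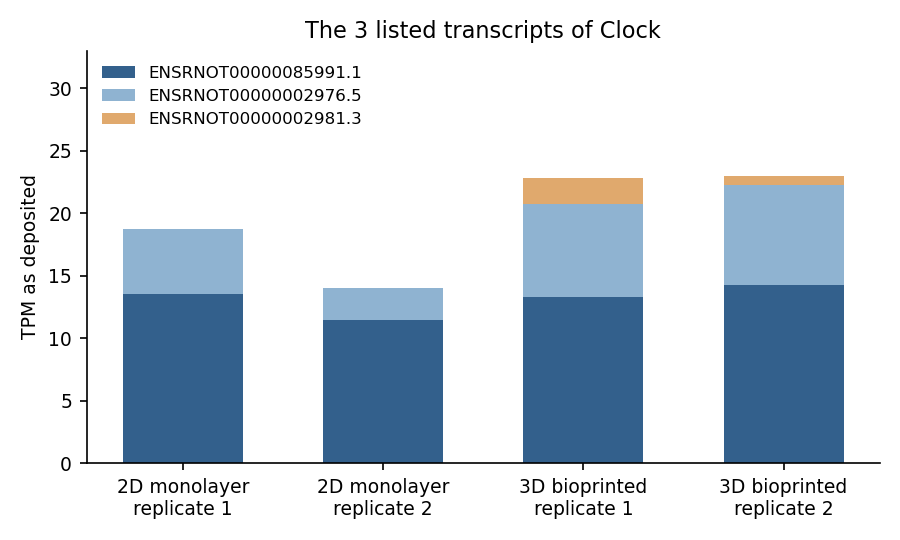
TPM of the 3 listed transcripts of Clock, stacked per culture. The darkest segment, ENSRNOT00000085991.1, is of similar height in all 4 cultures (11.5 to 14.2 TPM), and the totals of 22.8 and 23.0 TPM in 3D culture exceed 18.8 and 14.0 TPM in monolayer through the other segments.

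Among the direct repressors of the complex, the Period genes rose. Per1, which responds to acute signals as well as to the clock, had 12.0 and 10.8 TPM in the monolayer cultures and 18.9 and 18.0 TPM in the bioprinted cultures. Its log2 fold change was 0.61 (SE 0.071, limma adjusted p = 0.0053). Per2, a core component of the repressor complex, was the least abundant clock gene in monolayer, with 4.03 and 3.44 TPM, and had 7.12 and 6.32 TPM in the bioprinted cultures, a log2 fold change of 0.67 (SE 0.10, limma adjusted p = 0.0088). Every 3D value of both genes exceeded every monolayer value. Per1 and Per2 passed in all 9 other settings with 4 cultures, and lost the call only with 3D replicate 1 left out (adjusted p of 0.0663 and 0.0795). The Per1 to Per2 ratio was 2.99 and 3.15 in monolayer and 2.65 and 2.85 in 3D culture, which did not overlap (exact two-sided permutation p = 0.33, the smallest possible).

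The Cryptochrome genes, whose products bind and silence CLOCK and BMAL1, differed in whether they passed the test. Cry2 had 16.4 and 16.5 TPM in the monolayer cultures and 22.5 and 25.0 TPM in the bioprinted cultures, a log2 fold change of 0.46 (SE 0.074, limma adjusted p = 0.0095). With 3D replicate 1 or 3D replicate 2 left out, the adjusted p of Cry2 was 0.0682 and 0.0723. Cry1 had 8.56 and 7.13 TPM in the monolayer cultures and 10.8 and 9.09 TPM in the bioprinted cultures, and the lower 3D value was close to the higher monolayer value. Its log2 fold change was 0.27 with a 95% interval from -0.015 to 0.55, and it did not pass (limma adjusted p = 0.111). With the replicate number as a block the adjusted p of Cry1 was 0.0468, the only other setting in which it passed. The Cry1 to Cry2 ratio overlapped between groups, at 0.520 and 0.431 in monolayer and 0.479 and 0.363 in 3D culture (exact two-sided permutation p = 0.67, where 0.33 is the smallest possible), and a test of this size cannot show whether Cry1 and Cry2 changed alike or differently.

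Bhlhe40 had the largest difference of the 10 genes. It encodes DEC1, a basic helix-loop-helix repressor that competes with CLOCK and BMAL1 at E-boxes and is also known as a target of hypoxia signaling. Bhlhe40 had 22.9 and 20.2 TPM in the monolayer cultures and 86.4 and 79.7 TPM in the bioprinted cultures, so that the mean TPM was 3.85 times as high. The log2 fold change was 1.86 (SE 0.074, limma adjusted p = 0.0014), which ranked 38 among the 11960 genes tested by absolute size. With each culture left out in turn it stayed between 1.79 and 1.93, with adjusted p from 0.0114 to 0.0214. Bhlhe40 was the only one of the 10 clock genes that passed in all of these fits. The tested genes with the profiles nearest to it, by Euclidean distance between log2 values centred on their mean over the 4 samples, were Pfkfb3 (distance 0.11), Megf11 (0.145) and Zim1 (0.146). Megf11 and Zim1 were below 0.21 TPM in both monolayer cultures and passed the expression filter only through the 3D cultures. With 4 samples this likeness says little beyond a shared size of difference. For Arntl the nearest were Fgf12 (0.0114), Sertad3 (0.0239) and Zw10 (0.0243).

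The REV-ERB receptors, repressors of Arntl transcription in the second loop, were higher in 3D culture. Nr1d1, which encodes REV-ERB alpha, had 4.97 and 5.84 TPM in the monolayer cultures and 8.19 and 10.1 TPM in the bioprinted cultures, a log2 fold change of 0.62 (SE 0.13, limma adjusted p = 0.0186). The groups did not overlap, but the 3D cultures differed from each other by more than the monolayer cultures did. The adjusted p of Nr1d1 was 0.0576 without the expression filter, 0.0555 with monolayer replicate 1 left out, and 0.0737 and 0.107 with 3D replicate 1 and 3D replicate 2 left out. Nr1d2, which encodes REV-ERB beta, was more abundant, with 18.8 and 16.6 TPM in the monolayer cultures and 24.0 and 24.1 TPM in the bioprinted cultures. Its log2 fold change was 0.38 (SE 0.066, limma adjusted p = 0.0109). With 3D replicate 1 or 3D replicate 2 left out the adjusted p of Nr1d2 was 0.0995 and 0.0768. The Nr1d1 to Nr1d2 ratio overlapped between groups (exact two-sided permutation p = 0.67), ranging from 0.265 to 0.352 in monolayer and from 0.341 to 0.421 in 3D culture.

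Dbp, an output factor and a direct target of CLOCK and BMAL1, showed no detectable difference. It had 34.0 and 38.4 TPM in the monolayer cultures and 37.0 and 37.4 TPM in the bioprinted cultures, with both 3D values between the monolayer values. The log2 fold change was -0.0030 with a 95% interval from -0.23 to 0.22 (limma adjusted p = 0.982), and Dbp did not pass in any of the other settings. The interval does not reach the log2 fold changes estimated for Arntl or for any of the 7 genes that rose, the smallest of which was 0.38. It does overlap the 95% intervals of Arntl, Clock and Nr1d2, but not those of Per1, Per2, Cry2, Nr1d1 and Bhlhe40. No test of Dbp against another gene was run. Dbp was listed with 3 transcripts, of which ENSRNOT00000028546.5 held 48.7% to 51.8% of its TPM and ENSRNOT00000091597.1 48.2% to 51.3% over the 4 samples, while ENSRNOT00000091606.1 was at 0.

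Ordered by mean level, Dbp was the most abundant of the 10 genes in monolayer, followed by Bhlhe40, Nr1d2, Cry2, Clock, Per1, Cry1, Arntl, Nr1d1 and Per2. In this order the cultures of Cry2 and Clock overlapped, as did those of Cry1 and Arntl, and the other neighbours did not. In 3D culture Bhlhe40 came before Dbp, with means of 83.0 and 37.2 TPM, and Arntl was last with a mean of 5.68 TPM. Nr1d2, Cry2 and Clock had means of 24.1, 23.8 and 22.9 TPM in 3D culture and overlapped as neighbours, as did Cry1 and Nr1d1.

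Clock genes that were not among the 10 members were described from a further list of 10, called clock paralogues for short. The name does not hold for Ciart, which was listed for its role as a clock repressor. Of the 10 genes of this list 6 passed the expression filter, 5 rose and 1 fell, where 18.5% and 19.5% of all genes tested did. This list too was written with earlier results known, so its count is no independent evidence. Ciart, which encodes the repressor CHRONO, had 3.19 and 2.37 TPM in the monolayer cultures and 10.9 and 8.82 TPM in the bioprinted cultures, a log2 fold change of 1.49 (SE 0.14, limma adjusted p = 0.0041). Its promoter is the one with 3 E-boxes printed above. Bhlhe41, which encodes DEC2, the close relative of DEC1, had 15.0 and 12.8 TPM in the monolayer cultures and 26.2 and 26.6 TPM in the bioprinted cultures, a log2 fold change of 0.84. The Bhlhe40 to Bhlhe41 ratio was 1.53 and 1.58 in monolayer and 3.30 and 2.99 in 3D culture (exact two-sided permutation p = 0.33, the smallest possible). Per3 had 4.98 and 4.26 TPM in the monolayer cultures and 11.4 and 9.18 TPM in the bioprinted cultures, a log2 fold change of 0.97. On its most abundant transcript alone the log2 fold change of Per3 was 0.53 (limma adjusted p = 0.0196). Single E-boxes were also found before Bhlhe41 and Tef, and an E'-box before Arntl2. With Ciart, 3 of the 9 promoters matched from this list held an E-box.

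The D-box factors related to Dbp rose, while the D-box repressor fell. Hlf had 3.62 and 2.88 TPM in the monolayer cultures and 8.44 and 7.95 TPM in the bioprinted cultures, a log2 fold change of 1.08 (SE 0.10, limma adjusted p = 0.0041). Tef had 12.3 and 12.1 TPM in the monolayer cultures and 16.8 and 16.6 TPM in the bioprinted cultures, a log2 fold change of 0.38 (SE 0.065, limma adjusted p = 0.0108). The Dbp to Tef ratio was 2.77 and 3.18 in monolayer and 2.20 and 2.25 in 3D culture, without overlap (exact two-sided permutation p = 0.33, the smallest possible). Nfil3, which encodes E4BP4 and opposes DBP, TEF and HLF at D-boxes, had 14.1 and 13.2 TPM in the monolayer cultures and 10.6 and 10.6 TPM in the bioprinted cultures, a log2 fold change of -0.38 (SE 0.066, limma adjusted p = 0.0110). Npas2, Arntl2, Rora and Rorb were below the expression filter, with at most 1.04 TPM in any culture, and Rora was the one whose 3D values lay above its monolayer values. With 3D replicate 1 left out, the adjusted p of the 6 tested paralogues was between 0.0525 and 0.104, and with 3D replicate 2 left out Nfil3 and Tef had 0.0849 and 0.0736.

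**Figure D3:**
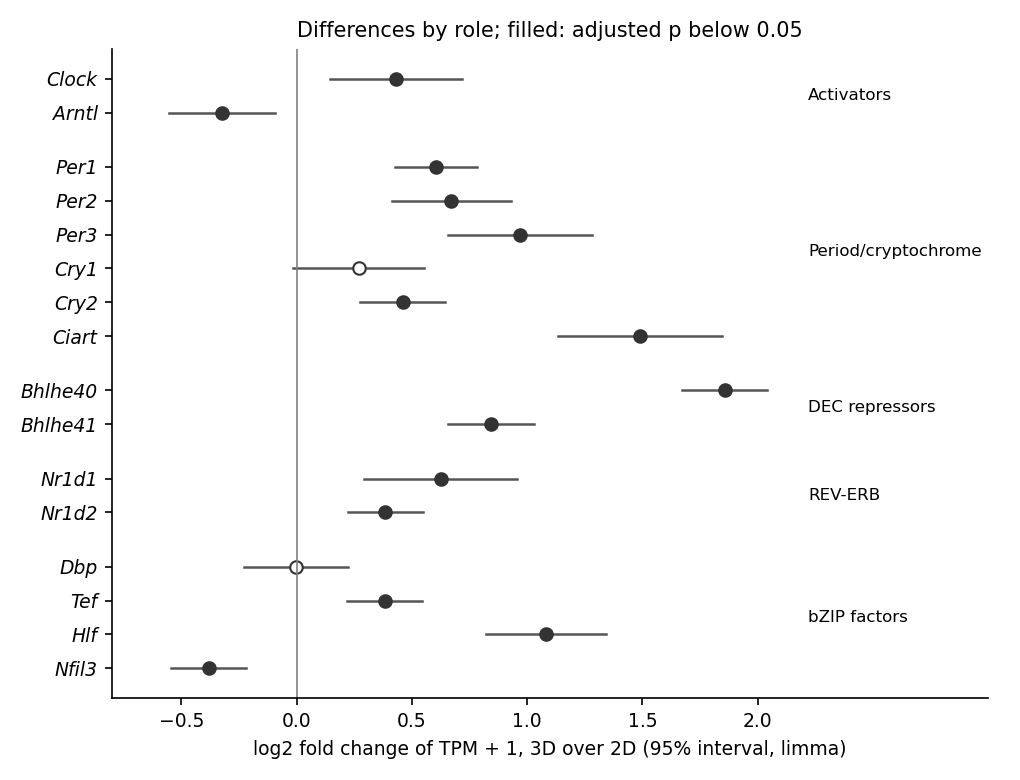
Log2 fold change of TPM + 1, 3D over 2D culture, for the 10 clock genes and the 6 tested genes of the paralogue list. They are grouped by role, with 95% intervals from limma and filled points for an adjusted p below 0.05. Arntl and Nfil3 lie below 0, Dbp lies at 0, and Bhlhe40 and Ciart are farthest to the right.

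Summed over paralogues, which TPM allows because it is per length, the DEC repressors had a mean of 35.4 ± 3.48 TPM in the monolayer cultures and 109 ± 4.51 TPM in the bioprinted cultures (SD, n = 2 per group). The Period genes together had 19.8 ± 1.79 and 35.5 ± 2.77 TPM, and the share of Per3 among them was 23.6% and 23.0% in monolayer and 30.6% and 27.4% in 3D culture. For the Cryptochromes the sums were 24.3 ± 0.960 and 33.7 ± 0.553 TPM, and for the REV-ERB genes 23.1 ± 0.921 and 33.2 ± 1.46 TPM. The PAR bZIP genes had the smallest relative difference of the repressor and output families, with 51.7 ± 2.40 and 62.1 ± 0.159 TPM, and the share of Dbp among them was 68.1% and 72.0% in monolayer and 59.5% and 60.4% in 3D culture. The activators Clock, Arntl, Npas2 and Arntl2 together had 24.8 ± 3.97 and 29.6 ± 0.726 TPM. This sum joins Clock and Arntl, which encode partners of a complex and moved in opposite directions. The share of Clock in it was 68.1% and 63.8% in monolayer and 78.4% and 76.2% in 3D culture. That of Arntl was 27.6% and 30.4% in monolayer and 18.2% and 20.1% in 3D culture. No sum overlapped between groups, as was the case for 74.2% of all genes tested taken singly, and no test was run on the sums.

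**Figure D4:**
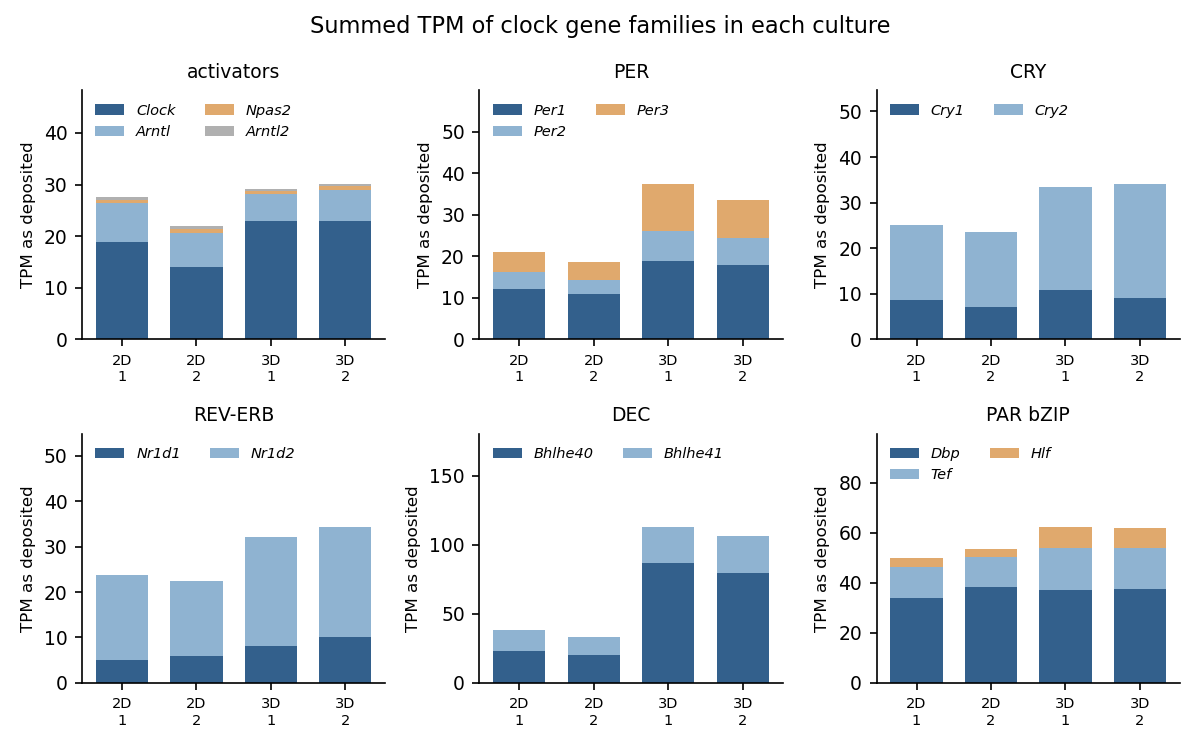
Summed TPM of 6 clock gene families in each culture, stacked by gene, with the monolayer cultures on the left and the bioprinted cultures on the right of each panel. The DEC panel shows the largest rise, from a mean of 35.4 to 109 TPM, mostly in its Bhlhe40 segment, while the Dbp segment of the PAR bZIP panel is between 34.0 and 38.4 TPM in all cultures.

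Of the genes whose products modify or degrade clock proteins, 17 were tested, of which 5 rose and 1 fell, with a median log2 fold change of 0.14. Over all genes tested 18.5% rose and 19.5% fell (38% in all), so that the share of these genes that passed was close to the background. Csnk1d and Csnk1e, the kinases that mark Period proteins for degradation, did not pass, with log2 fold changes of -0.0073 and 0.17. Fbxl21, which encodes a ubiquitin ligase subunit for Cryptochromes, rose from a mean of 4.56 ± 0.539 to one of 7.996 ± 0.174 TPM (SD, n = 2 per group), a log2 fold change of 0.66 (limma adjusted p = 0.0065). The other rises were those of Fbxw7, Gsk3b, Huwe1 and Usp7, with log2 fold changes of 0.66, 0.54, 0.50 and 0.23. Csnk2b, the regulatory subunit of casein kinase II, fell by 0.38 on the log2 scale.

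Of 17 clock coregulators tested, 7 rose and 3 fell, where 18.5% of all genes rose and 19.5% fell, and their median log2 fold change was 0.12. Ep300, an acetyltransferase that coactivates CLOCK and BMAL1, rose from a mean of 4.37 ± 1.08 to one of 9.04 ± 0.992 TPM (SD, n = 2 per group), a log2 fold change of 0.88 (limma adjusted p = 0.0098). Tbl1xr1, a subunit of the corepressor complex through which REV-ERB acts, Kdm5a and Ddx6 had log2 fold changes of 0.53, 0.49 and 0.41. Hdac3 and Ncor1, of the same corepressor complex, had log2 fold changes of -0.033 and 0.12 and did not pass. Tbl1x, also of that complex, rose with a log2 fold change of 0.26 (limma adjusted p = 0.0315). Timeless, which in mammals is known mainly for its part at the replication fork, and Parp1, a DNA repair enzyme, fell by 0.54 and 0.42 on the log2 scale.

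The list of clock output genes had 11 tested members, of which 8 rose and 1 fell, against 18.5% and 19.5% of all genes, with a median log2 fold change of 0.53. Ppargc1a and Tspan4 averaged below 1 TPM in monolayer and passed the expression filter only through the 3D cultures, where they were high, so their rises were in part set by the filter. Prok2, which encodes a secreted peptide under E-box control in the suprachiasmatic nucleus, had 6.20 and 6.94 TPM in the monolayer cultures and 44.7 and 52.7 TPM in the bioprinted cultures, a log2 fold change of 2.67 (SE 0.11, limma adjusted p = 0.0014). Klf10 and Klf9, Krüppel-like factors with rhythmic expression in several tissues, had log2 fold changes of 0.81 and 0.73. Ppargc1a, a coactivator of the ROR receptors, rose from a mean of 0.866 ± 0.216 to one of 3.24 ± 0.424 TPM (SD, n = 2 per group), a log2 fold change of 1.16. Nampt, the enzyme of NAD synthesis, and Tspan4 had log2 fold changes of 0.36 and 0.75. Klf10 and Prok2 were known to be high in 3D culture when the list was written, so the count of this list is no independent evidence.

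The calls depended on which cultures entered the fit, and most on 3D replicate 1. With it left out, 1 of the 10 clock genes was called, Bhlhe40, and 1.14% of all genes tested. With 3D replicate 2 left out, 3 clock genes were called (Bhlhe40, Per1 and Per2), and 8.71% of all genes. With monolayer replicate 1 or monolayer replicate 2 left out, 6 and 7 clock genes were called, and 37.6% and 27% of all genes. These fits have 3 cultures, and the lone culture of a group is assumed to vary like the pair of the other. The direction of 9 of the 10 genes was the same in all 13 alternative fits that gave a fold change, and Dbp, whose difference was near 0, changed sign in 6 of them.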

How the data were processed

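INS-1 832/3 cells were profiled in 4 mRNA samples, 2 of 2D monolayer and 2 of 3D-bioprinted culture, grouped by the culture method in the labels. Per the labels and methods, 75-bp single end reads of stranded libraries were checked with FastQC 0.11.8 and quantified per transcript with Salmon 1.2. The reference they name is rn4 plus the human insulin gene. The transcript identifiers carry versions of later rat annotations, so the set of transcripts used is not certain. The authors deposited TPM, written with decimal commas, which keep no depth. Since counts were not used here, limma took the place of the DESeq2 test of the study.

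TPM were summed per symbol, and 11960 genes averaging at least 1 TPM were kept. Scaling between samples used an unweighted trimmed mean of M values (factors 0.960 to 1.02, trimming 30% of M and 5% of A on either side). Then log2(TPM + 1) entered limma 3.58.1 under R 4.3.3, using its empirical Bayes step with a trend on intensity and Benjamini-Hochberg adjustment over all genes. The code was checked on simulated data with known changes. Of changes of 0.5 on the log2 scale 23.9% were called, of changes of 1 61.4% and of changes of 2 91.3%. Few genes were changed in the simulation, so these rates need not hold for the real data. A gene that did not pass is thus not shown to be unchanged. Whether equal replicate numbers mark paired cultures was checked from their deviations around the group means, which gave r = -0.0060 over genes. With 2 cultures per group this value cannot exclude a shared source. Sequences and motifs came from RefSeq promoters (GRCr8), read on the gene's strand. Kat2b and Mkl1 were matched through synonyms in the RefSeq gene table, and Sirt1, Mkl2 and Pecam1 were unmatched. The genes named are the 10 clock genes, the list of clock paralogues, up to 6 called genes with the smallest p in each other list, and the nearest profiles. Csnk1d, Csnk1e, Hdac3, Ncor1, Tbl1x, Creb1, Fkbp5, Sgk1 and Srf were named after their values were seen. Results of some genes of these lists are not reported here. The members and lists were chosen with earlier results of these data known.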

Additional observations from a re-analysis of the deposited data

How the results depend on the processing

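Scaling, filter, pseudocount, empirical Bayes options, transcript choice and the replicate block were changed in turn, and each culture was left out. Without the expression filter 5 clock genes and 22.3% of 16749 genes were called, and at an adjusted p below 0.01, 4 clock genes and 1418 of all genes. With each culture left out in turn, between 1 and 7 clock genes and between 136 and 4515 of all genes were called, the lowest counts being those without 3D replicate 1. Whether equal replicate numbers mark a shared source is not known. A replicate block called 9 clock genes, Cry1 being added, and 4814 of all genes. The log2 fold change of Dbp changed sign to 0.039 without scaling, 0.0020 with median-of-ratios scaling, 0.021 with a mean TPM of at least 5, 0.026 with the most abundant transcript, and ran from -0.13 to 0.12 (0.0015 without 3D replicate 2) with a culture left out. It passed no threshold in these fits. TPM keep no depth, so differences of genes at low TPM cannot be set against a counting error.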

Other observations

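Genes of pathways that act on the Period genes were read from a list of 15, of which 14 were tested. Of these 7 rose and 2 fell (18.5% and 19.5% of all genes), with a median log2 fold change of 0.32. The list mixes inducing factors with kinases that restrain them and with target genes of the glucocorticoid receptor. Its counts therefore give no direction of the input to the Period genes. Crem, a factor of the cyclic AMP pathway, had 46.4 and 41.9 TPM in the monolayer cultures and 82.8 and 80.0 TPM in the bioprinted cultures, a log2 fold change of 0.83 (SE 0.060, limma adjusted p = 0.0035). The salt-inducible kinases Sik2 and Sik3, which restrain CREB coactivators, had log2 fold changes of 0.86 and 0.49, and the coactivator Crtc1 of 0.46. Creb1 and Srf had log2 fold changes of -0.048 and 0.020 and did not pass. Nr3c1, the glucocorticoid receptor, rose from a mean of 16.9 ± 0.942 to one of 24.3 ± 0.398 TPM (SD, n = 2 per group), a log2 fold change of 0.46 (limma adjusted p = 0.0063). Tsc22d3 and Fkbp5, known targets of that receptor, were the genes that fell, by 0.39 and 0.26 on the log2 scale. Sgk1, another known target, had a log2 fold change of 0.26 in the other direction and did not pass (limma adjusted p = 0.0828).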
